A study of Rattus norvegicus with 8 samples.

Results

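The Nduf genes encode the nuclear subunits of respiratory complex I and most of the assembly factors named after it. They were taken as every line of the deposited expression table whose gene name begins with Nduf, which gave 46 of 21017 gene entries. Of these, 37 carry the names of complex I subunits, 7 are NDUFAF assembly factors, and 2 carry the name without belonging to the complex: Ndufa4, now counted as a subunit of cytochrome c oxidase, and its paralog Ndufa4l2. The Ndufs6 entry is annotated as a processed pseudogene and counts here by its name. The study compared neonatal cardiomyocytes of SD rats, labelled as heart tissue, 48 h after transfection with an siRNA labelled siECHS1 or with the control siRNA labelled siNC, with 4 RNA-seq libraries in each group. Every library received an siRNA, so cells that were never transfected are not part of the comparison. The labels do not say whether libraries of a group came from separate cultures, so p-values measure the spread between these libraries, which may be technical. ECHS1 is the mitochondrial short-chain enoyl-CoA hydratase, an enzyme of fatty acid and valine breakdown.

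Complex I, the NADH:ubiquinone oxidoreductase, takes electrons from NADH made by the citric acid cycle and fatty acid oxidation, passes them to ubiquinone and pumps protons across the inner mitochondrial membrane. Its N module binds NADH and flavin, its Q module carries the ubiquinone site, and its membrane arm is built from the ND1, ND2, ND4 and ND5 modules around subunits encoded by mitochondrial DNA. Core subunits are conserved from bacteria and hold the cofactors, supernumerary subunits surround them, and assembly factors help to build the complex without remaining in it. Cardiomyocytes are packed with mitochondria and hold much complex I.

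Totals recovered from the smallest steps of the deposited FPKM values (fragments per kilobase of transcript, scaled to mapped reads) were 16953309 to 18237111 reads per library. Echs1, the targeted gene, was at 1.66, 1.35, 1.18 and 1.12 FPKM in siNC libraries and 0.670, 0.444, 0.424 and 0.525 FPKM in siECHS1 libraries, so 38.8% of the mean was left (exact two-sided permutation test, p = 0.0286, the smallest that 4 against 4 libraries allow). Tests across genes used limma on log2(FPKM + 1), with p-values adjusted by Benjamini and Hochberg's method across 12616 tested genes, and changes below are log2 differences on that scale. LOC100911186, a further entry with the same protein match, fell by 0.80 ± 0.09 (SE, adjusted p = 0.000272, limma). It measured 6.61 FPKM in siNC and 3.38 FPKM in siECHS1 libraries, so 51.1% of its mean was left. This entry held 690 reads in siNC and 363 in siECHS1 libraries, beside 138 and 55 for the Echs1 entry. Cardiomyocyte markers were abundant in every library, with a summed level of 7318 to 7501 FPKM in siNC and 7358 to 8072 FPKM in siECHS1 libraries over the 10 tested, of which 2 rose and 3 fell. Markers of fibroblasts summed to 2699 to 2906 FPKM in siNC and 3522 to 3897 FPKM in siECHS1 libraries, with 4 of 7 risen and 1 fallen. Endothelial markers gave 0 calls among 6 in limma and 0 at an unadjusted p under 0.05, and summed to 28.8 to 31.4 FPKM over all libraries. Smooth muscle and pericyte markers summed to 2573 to 2618 FPKM in siNC and 2754 to 3013 FPKM in siECHS1 libraries, with 1 of 6 risen. Single genes made up most of the fibroblast and of the smooth muscle and pericyte sums. The highest mean over all libraries was 2428 FPKM in the first list and 2317 FPKM in the second, beside medians of 39.8 and 70.9 FPKM. Macrophage markers summed to 29.9 to 34.2 FPKM over all libraries, with 1 of 4 risen and 1 fallen, and Ptprc, C1qa and Adgre1 were under 1 FPKM. The part of these markers in the Nduf values was not tested.

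Of the 42 Nduf entries with a mean of at least 1 FPKM, 4 fell and 2 rose in siECHS1 libraries at an adjusted p under 0.05, and 36 did not pass. Ndufa10, Ndufs3 and Ndufv1 fell among the subunits and Ndufs1 rose, while among the assembly factors Ndufaf1 fell and Ndufaf6 rose. siECHS1 replicate 4 stood apart from the other siECHS1 libraries over these genes, and without it 9 fell and 2 rose. The called share was 14.3% of the Nduf entries, beside 21.0% of all genes tested. By direction, 9.52% of the Nduf entries fell beside 12.2% of all genes, and 4.76% rose beside 8.83%. The median change was -0.06 for the Nduf entries and -0.01 for all genes. The Nduf median was -0.09 without siECHS1 replicate 4, -0.03 without siNC replicate 4 or siECHS1 replicate 3, and -0.04 without siNC replicate 2. In bulk RNA, fewer cells of a type and less RNA per cell cannot be told apart. The groups' ranges did not overlap for 9 of the 42 entries, or 21.4%, beside 25.2% of all genes, and 5 of those 9 were lower and 4 higher in siECHS1 libraries, beside 14.9% and 10.3% of all genes. Under median-of-ratios scaling 3 Nduf entries fell and 3 rose, beside 20.1% of all genes called, 9.84% fallen and 10.2% risen.

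**Figure D1:**
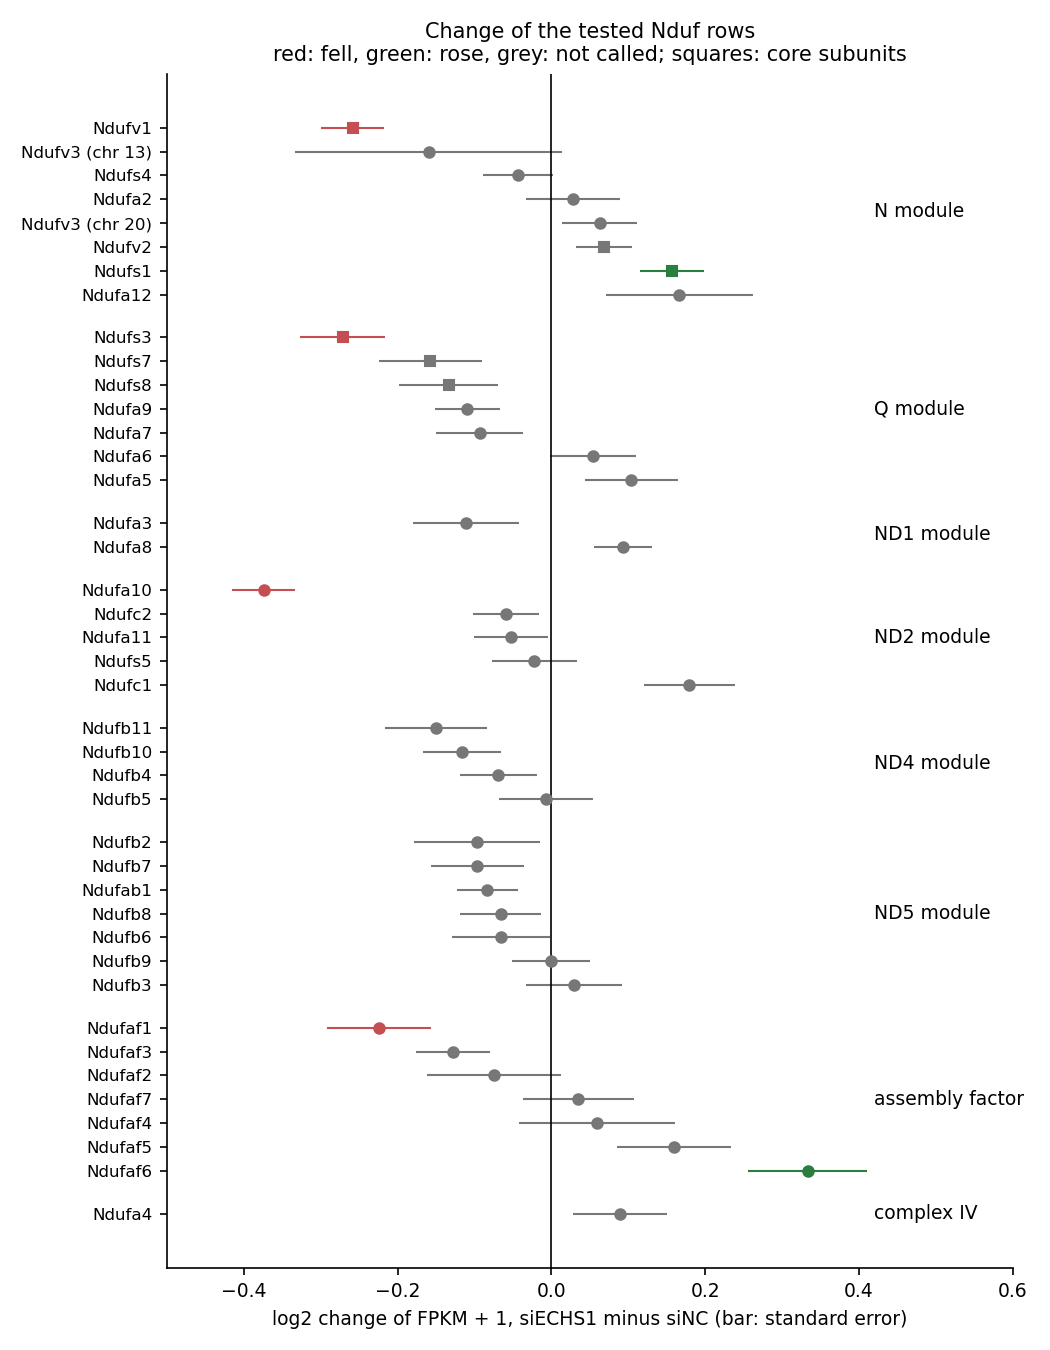
Log2 change of tested Nduf entries in siECHS1 against siNC libraries, grouped by module, with points for the limma estimate and bars for its standard error. Most points lie near 0 within 0.20, and Ndufa10 at -0.37 and Ndufaf6 at 0.33 lie farthest from it.

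The 2 N module subunits called in the test moved in opposite directions. Ndufv1 carries the NADH and flavin site, and Ndufs1 is the neighbouring iron-sulfur subunit that receives its electrons. Ndufv1 measured 192, 208, 197 and 206 FPKM in the 4 siNC libraries and 168, 165, 160.1 and 177 FPKM in the 4 siECHS1 libraries. All 4 siECHS1 values were below all 4 siNC values. The fall was 16.5% of the mean, a log2 change of -0.26 ± 0.04 (SE, adjusted p = 0.00161, limma). Ndufs1 measured 82.8, 80.3, 79.6 and 73.7 FPKM in siNC libraries and 90.7, 90.7, 85.3 and 86.2 FPKM in siECHS1 libraries. Its siECHS1 values all lay above the siNC values. The rise was 11.6% of the mean, a log2 change of 0.16 ± 0.04 (SE, adjusted p = 0.0239, limma), and its adjusted p passed 0.05 when siNC replicate 3 (0.0514), siNC replicate 4 (0.0538), siECHS1 replicate 1 (0.0667) or siECHS1 replicate 2 (0.0717) was left out.

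Ndufs3, a core Q module subunit that joins early in assembly, fell. It measured 102, 119, 109.9 and 112 FPKM in siNC libraries and 88.9, 91.1, 85.9 and 100.1 FPKM in siECHS1 libraries. The groups did not overlap, and siECHS1 replicate 4 came nearest to the siNC range. Its mean fell by 17.3%, a log2 change of -0.27 ± 0.06 (SE, adjusted p = 0.00693, limma). The Ndufs3 entry overlaps that of Kbtbd4 in position, and whether reads were shared between them was not tested.

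Ndufa10, a supernumerary subunit of the ND2 module that is related in sequence to nucleoside kinases, had the most negative change of the 42 tested entries. It measured 93.2, 94.6, 90.6 and 97.5 FPKM in siNC libraries and 69.4, 72.1, 70.4 and 77.4 FPKM in siECHS1 libraries. The lowest siNC library stood well above the highest siECHS1 library. The mean fell by 23.0%, a log2 change of -0.37 ± 0.04 (SE, adjusted p = 0.000245, limma). Ndufa10, Ndufs3, Ndufv1 and Ndufaf6 passed the test in all 15 alternative analyses that were run.

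**Figure D2:**
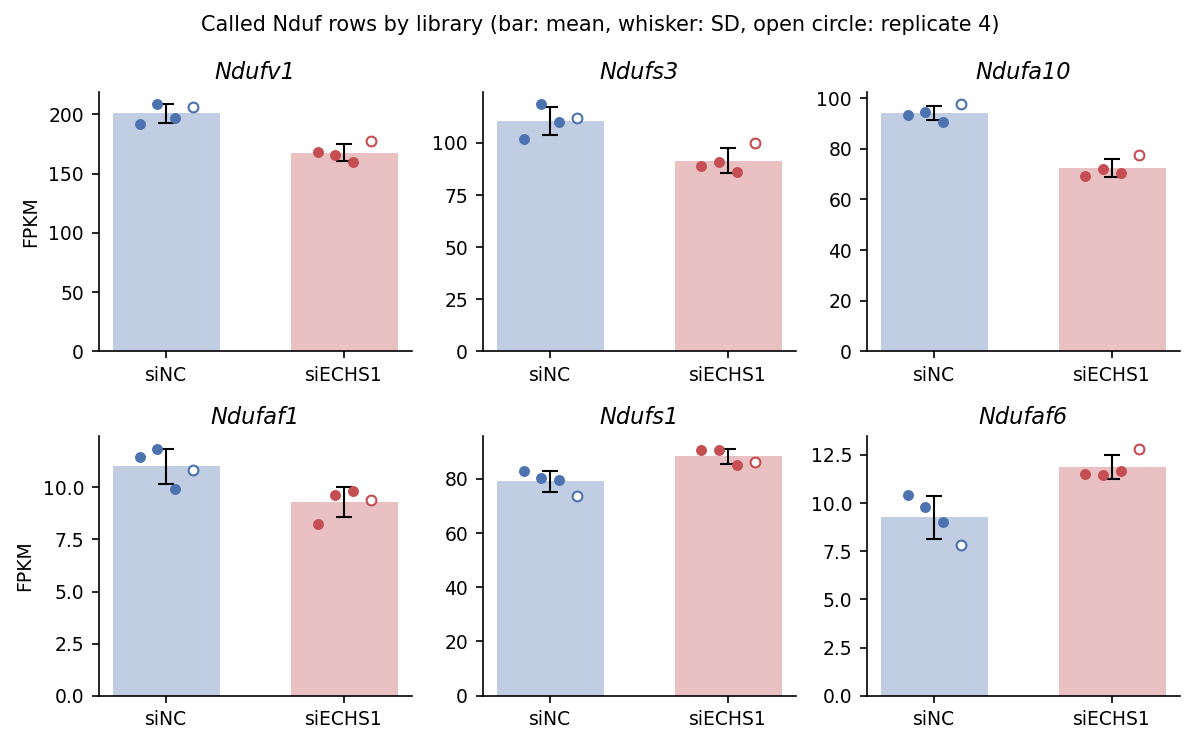
FPKM in each of the 8 libraries for the 6 Nduf entries that passed the test, with a panel for each gene, points for libraries, bars for the group mean, whiskers for the SD and an open circle for replicate 4. In each of the 6 panels the siNC and siECHS1 points do not overlap.

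The 5 of these 6 genes with an entry in the RefSeq promoter table of build GRCr8 are shown with their promoters, 250 bases before to 50 bases after the annotated start, so that members that fell can be set beside Ndufs1, which rose. Capitals mark the letters of 4 motifs known from nuclear genes of oxidative phosphorylation, searched on both strands: NRF1 (its palindromic consensus), the ETS factor GABPA (CCGGAAG), YY1 (AANATGGC) and the oestrogen-related receptor ERR (TNAAGGTCA). The sequences are Ndufv1 at chr1:210734842-210735141, Ndufs3 at chr3:97339605-97339904, Ndufa10 at chr9:100489215-100489514, Ndufaf1 at chr3:127103971-127104270 and Ndufs1 at chr9:72073556-72073855, each on the minus strand and written 5′ to 3′.
Ndufv1: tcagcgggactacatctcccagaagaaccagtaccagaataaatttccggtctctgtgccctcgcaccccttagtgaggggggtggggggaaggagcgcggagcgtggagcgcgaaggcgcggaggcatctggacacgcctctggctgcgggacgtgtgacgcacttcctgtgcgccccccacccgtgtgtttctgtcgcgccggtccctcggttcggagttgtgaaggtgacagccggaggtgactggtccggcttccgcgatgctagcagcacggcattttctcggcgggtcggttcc
Ndufs3: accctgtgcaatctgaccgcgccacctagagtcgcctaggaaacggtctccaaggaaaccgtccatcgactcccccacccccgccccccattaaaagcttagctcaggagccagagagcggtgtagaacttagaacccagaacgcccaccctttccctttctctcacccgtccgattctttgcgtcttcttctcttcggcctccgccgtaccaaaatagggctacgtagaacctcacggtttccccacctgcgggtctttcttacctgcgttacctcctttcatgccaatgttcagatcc
Ndufa10: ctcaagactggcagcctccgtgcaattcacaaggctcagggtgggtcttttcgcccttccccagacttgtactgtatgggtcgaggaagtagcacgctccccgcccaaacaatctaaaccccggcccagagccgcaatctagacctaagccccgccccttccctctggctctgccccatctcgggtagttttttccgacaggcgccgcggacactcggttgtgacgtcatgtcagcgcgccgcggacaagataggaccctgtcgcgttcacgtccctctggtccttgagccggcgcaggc
Ndufaf1: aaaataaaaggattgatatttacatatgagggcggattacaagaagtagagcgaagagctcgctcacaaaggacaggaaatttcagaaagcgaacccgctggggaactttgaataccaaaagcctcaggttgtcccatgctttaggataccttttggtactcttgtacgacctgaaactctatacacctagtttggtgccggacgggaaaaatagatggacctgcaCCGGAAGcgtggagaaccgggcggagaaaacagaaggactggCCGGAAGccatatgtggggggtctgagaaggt
Ndufs1: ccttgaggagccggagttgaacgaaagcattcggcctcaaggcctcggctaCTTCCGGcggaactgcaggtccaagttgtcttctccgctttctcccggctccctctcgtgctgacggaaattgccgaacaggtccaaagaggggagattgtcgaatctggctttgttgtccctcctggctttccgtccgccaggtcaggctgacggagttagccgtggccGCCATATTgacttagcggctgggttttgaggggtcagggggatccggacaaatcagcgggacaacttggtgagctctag
Ndufaf1, which fell, holds the ETS letters at positions -24 to -18 and again at 19 to 25 from the start. Ndufs1, which rose, holds the ETS letters at -199 to -193 and the YY1 letters at -29 to -22, both read on the opposite strand. The windows of Ndufv1, Ndufs3 and Ndufa10 hold the letters of none of these 4 motifs.

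Promoters of the same length were found for 39 of the 46 Nduf entries. The YY1 letters were in 38.5% of these 39 promoters, in 9.98% of the 10066 promoters of tested genes and in 6.96% of all 33469 promoters. NRF1 letters were in 20.5%, 9.52% and 4.25% of the same 3 sets, and ETS letters in 17.9%, 16.8% and 8.75%. ERR letters were in 2.56%, 0.656% and 1.20%. Of the basal elements, the GC box (GGGCGG) was in 48.7%, 62.8% and 33.1%, and the CCAAT box (CCAAT) in 30.8%, 37.3% and 37.5%. A match of letters is a description of the window and not a bound site.

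Among all 7 nuclear core subunits, 2 fell, 1 rose and 4 did not pass, with a median change of -0.13. Of these few entries 42.9% were called, beside 21.0% of all genes tested, a difference that was not tested. Ndufv2, the iron-sulfur partner of Ndufv1 in the N module, had a log2 change of 0.07 ± 0.04 (SE, adjusted p = 0.217, limma). Ndufs7 and Ndufs8, iron-sulfur subunits of the Q module, had -0.16 ± 0.07 (SE, adjusted p = 0.122, limma) and -0.13 ± 0.06 (SE, adjusted p = 0.171, limma).

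Relative levels within the N module differed between the groups. The Ndufs1 to Ndufv1 ratio of FPKM was 0.395 ± 0.0310 (SD, n = 4) in siNC and 0.527 ± 0.0280 (SD, n = 4) in siECHS1 libraries. The Ndufv2 to Ndufv1 ratio was 0.783 ± 0.0135 (SD, n = 4) and 0.983 ± 0.00747 (SD, n = 4). Neither ratio overlapped between the groups, and they were chosen after the changes of the single genes were seen, so they carry no test. They compare RNA per length and say nothing of protein.

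**Figure D3:**
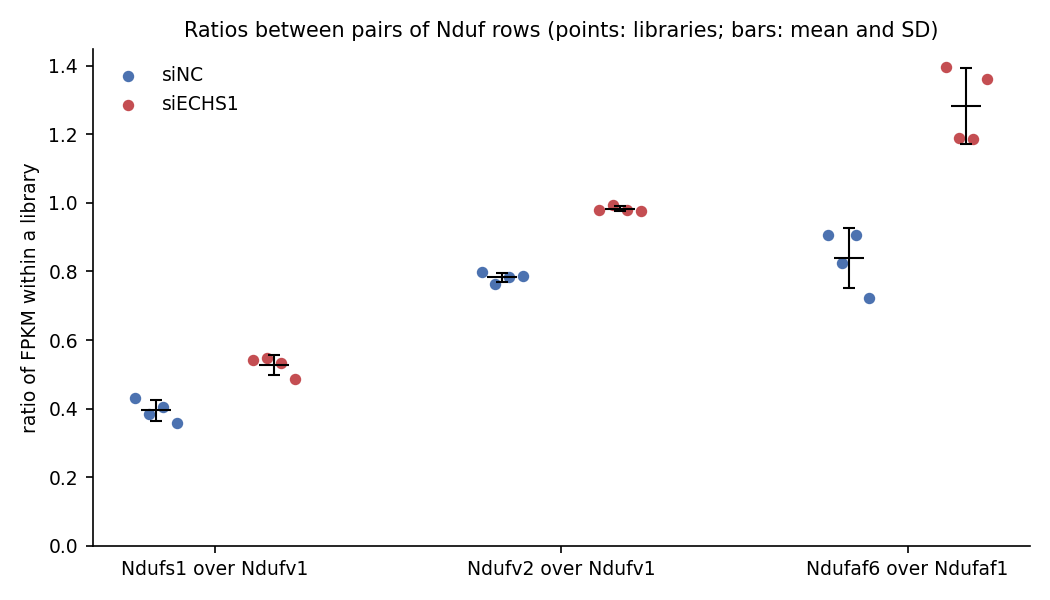
Ratios of FPKM between pairs of complex I genes in each of the 8 libraries, with points for libraries and bars for the group mean and SD. All 3 ratios are higher in every siECHS1 library than in any siNC library. Each ratio holds a gene already called in the same libraries, so none carries a test.

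Of the 27 supernumerary subunit entries tested, Ndufa10 fell and the other 26 did not pass, and the median change was -0.06. The called share was 3.70%, beside 21.0% of all genes. By module, 1 of 8 N module entries fell and 1 rose, 1 of 8 Q module entries fell, and 1 of 5 ND2 module entries fell. None of the 2 ND1, 4 ND4 and 7 ND5 module entries passed in limma. The 10 Ndufb subunits, which line the distal membrane arm, gave 0 calls in limma, with 2 at an unadjusted p under 0.05, both lower. Among these 10, 9 estimates were below 0, beside 6812 of all 12616 genes tested. The Ndufb estimates ranged from -0.15 to 0.03, but Ndufb5 and Ndufb9 were above 0 under median-of-ratios scaling. Ndufc1, a small ND2 module subunit, was just outside the threshold, with 87.7, 98.8, 99.4 and 95.9 FPKM in siNC libraries and 99.9, 107, 106 and 121 FPKM in siECHS1 libraries. Its siECHS1 values were all above its siNC values, and its log2 change was 0.18 ± 0.06 (SE, adjusted p = 0.0549, limma). It passed as risen in 5 of the 15 alternative analyses: with a minimum of 5 FPKM, under median-of-ratios scaling, under quantile normalization, with a replicate block and without siECHS1 replicate 1 (adjusted p from 0.0279 to 0.0479, limma). The accessory N module subunit Ndufa12 had a larger spread, and its change was 0.17 ± 0.10 (SE, adjusted p = 0.246, limma).

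Levels spanned a wide range. Ndufb8 at 317 FPKM, Ndufb4 at 303.9 FPKM and Ndufb9 at 272 FPKM, as means over the 8 libraries, were the most abundant entries. Ndufb8 and Ndufb9 belong to the ND5 module, Ndufb4 to the ND4 module. Their log2 changes were -0.07, -0.07 and -0.0004, none of which passed (adjusted p = 0.418, 0.363 and 0.997, limma). The median subunit entry measured 114 FPKM, and the median NDUFAF entry 10.2 FPKM.

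**Figure D4:**
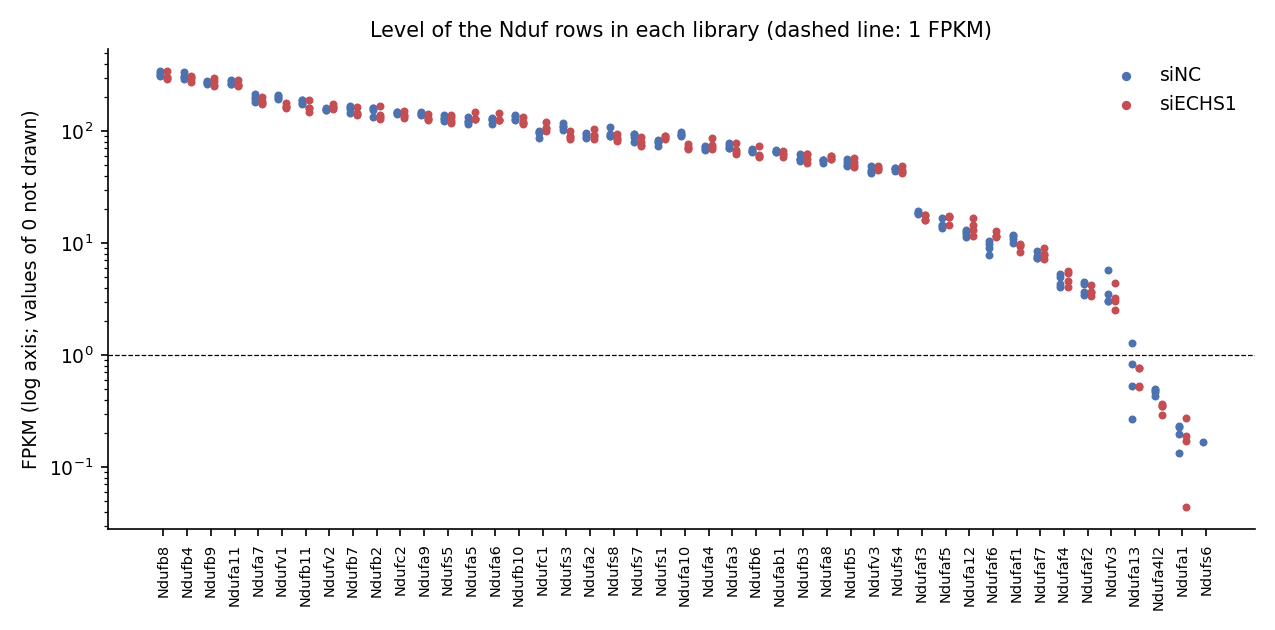
FPKM of Nduf entries in each library on a log axis, ordered from the highest mean to the lowest, with points coloured by group, values of 0 not drawn and a dashed line at 1 FPKM. The NDUFAF assembly factors have means between 3.86 and 17.8 FPKM, below most subunits, and Ndufs6 is lowest at a mean of 0.0209 FPKM.

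The 7 NDUFAF assembly factors did not share a direction, with 1 that fell, 1 that rose and 5 that did not pass. So 28.6% of these few genes were called, beside 21.0% of all genes. Ndufaf1, which with other proteins forms the MCIA complex that builds the ND2 module, measured 11.5, 11.9, 9.94 and 10.8 FPKM in siNC libraries and 8.26, 9.64, 9.83 and 9.42 FPKM in siECHS1 libraries. The highest siECHS1 value lay just under the lowest siNC value. Its mean fell by 15.7%, a log2 change of -0.22 ± 0.07 (SE, adjusted p = 0.0392, limma). This call was lost in 10 of the 15 alternative analyses, where the adjusted p reached 0.103. It was lost, among others, when siNC replicates 1, 2 or 4 or siECHS1 replicates 1, 2 or 4 were left out (adjusted p from 0.0591 to 0.103, limma).

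Ndufaf6, a factor needed for early steps of complex I assembly in human cells, rose. It measured 10.4, 9.78, 9.02 and 7.81 FPKM in siNC libraries and 11.5, 11.5, 11.7 and 12.8 FPKM in siECHS1 libraries. Each siECHS1 library was above each siNC library, with siECHS1 replicate 4 standing apart from the other 3. The mean rose by 28.3%, a log2 change of 0.33 ± 0.08 (SE, adjusted p = 0.0126, limma). The Ndufaf6 to Ndufaf1 ratio of FPKM was 0.840 ± 0.0874 (SD, n = 4) in siNC and 1.28 ± 0.112 (SD, n = 4) in siECHS1 libraries. Ndufaf6 rose and Ndufaf1 fell in the same libraries, so this ratio had to differ between the groups and carries no test.

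The other 5 NDUFAF genes did not pass. Ndufaf3 and Ndufaf4 act together on the Q module. Ndufaf3 had a log2 change of -0.13 ± 0.05 (SE, adjusted p = 0.0849, limma), and its ranges did not overlap, at 18.1 to 19.2 FPKM in siNC and 16.1 to 17.9 FPKM in siECHS1 libraries. Ndufaf4 had 0.06 ± 0.10 (SE, adjusted p = 0.729, limma). Ndufaf5, which hydroxylates an arginine of NDUFS7, had 0.16 ± 0.07 (SE, adjusted p = 0.154, limma). Ndufaf2, which acts late at the N module, had -0.07 ± 0.09 (SE, adjusted p = 0.593, limma), and Ndufaf7, an arginine methyltransferase that acts early in assembly, had 0.04 ± 0.07 (SE, adjusted p = 0.778, limma). The median change was 0.04 for the NDUFAF entries and -0.06 for the subunit entries, a difference of 0.10 that carries no test. Without siECHS1 replicate 4 the NDUFAF median was -0.02, and the median over all 42 tested Nduf entries also moved down, from -0.06 to -0.09. LOC690871, an entry that the deposited annotation matches in UniProt to assembly factor 8, measured 23.1 FPKM in siNC and 21.4 FPKM in siECHS1 libraries.

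Of 14 tested assembly factors without the Nduf name, 2 fell, 1 rose and 11 did not pass. The called share was 21.4%, close to the 21.0% of all genes tested. By direction, 14.3% fell and 7.14% rose, beside 12.2% and 8.83% of all genes. Tmem126b and Tmem186, both partners of Ndufaf1 in the MCIA complex, fell by 0.30 ± 0.08 (SE, adjusted p = 0.0196, limma) and by 0.18 ± 0.05 (SE, adjusted p = 0.0388, limma) on the log2 scale. The other MCIA partners on the list, named here after their values were seen, were Acad9 at 0.11 ± 0.04 (SE, adjusted p = 0.0740, limma) and Ecsit at -0.02 ± 0.05 (SE, adjusted p = 0.764, limma). Aifm1, the apoptosis-inducing factor that also aids import of complex I subunits, rose by 0.16 ± 0.05 (SE, adjusted p = 0.0439, limma).

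The 7 mitochondrially encoded complex I subunits gave 0 calls in limma and 0 at an unadjusted p under 0.05, with a median log2 change of -0.08. Mt-nd4 had the most negative estimate, -0.15 ± 0.14 (SE, adjusted p = 0.459, limma). Of 18 genes that supply iron-sulfur clusters and flavin, 2 rose and 1 fell, so 16.7% were called beside 21.0% of all genes. Hspa9, the mitochondrial chaperone of cluster transfer, rose by 0.22 ± 0.04 (SE, adjusted p = 0.00424, limma). Nfu1, a late cluster carrier, rose by 0.14 ± 0.04 (SE, adjusted p = 0.0457, limma), and Iba57, another late-acting factor, fell by 0.23 ± 0.07 (SE, adjusted p = 0.0312, limma). Of 15 regulators of genes for oxidative phosphorylation, nuclear or mitochondrial, the mitochondrial RNA polymerase Polrmt fell by 0.20 ± 0.06 (SE, adjusted p = 0.0313, limma) and the other 14 did not pass.

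For complexes II to V together, 14 of 46 nuclear subunit entries fell and 1 rose, with a median log2 change of -0.10, beside 12.2% of all genes fallen and 8.83% risen. In complex II, 3 of 4 subunits fell. They were the membrane anchors Sdhd at -0.23 ± 0.03 (SE, adjusted p = 0.00136, limma) and Sdhc at -0.20, and the flavoprotein Sdha at -0.10. In complex III, 3 of 10 fell and 1 of 2 Uqcrb entries, on chromosome 1, rose by 0.30 ± 0.05 (SE, adjusted p = 0.00205, limma). The other Uqcrb entry, on chromosome 7, had 0.08 ± 0.10 (SE, adjusted p = 0.635, limma). The core protein Uqcrc1 fell by 0.31 ± 0.05 (SE, adjusted p = 0.00165, limma). The other 2 that fell in complex III were cytochrome c1 (Cyc1) at -0.17 and the Rieske protein Uqcrfs1 at -0.15. In complex IV, 3 of 16 fell, namely Cox7a2l at -0.15 and the 2 Cox6b1 entries at -0.23 and -0.21. Both Cox6b1 entries count among the 14 that fell. How reads were divided between entries of the same name, here Uqcrb and Cox6b1, is not known. In complex V, 5 of 16 fell, led by the membrane subunit Atp5j2 at -0.30 ± 0.05 (SE, adjusted p = 0.00239, limma), with Atp5g2 at -0.24, Atp5g3 at -0.19, Atp5o at -0.17 and the catalytic subunit Atp5b at -0.16. The difference between these counts and those of complex I was not tested. The fallen count among complexes II to V was 8 under median-of-ratios scaling, where 2 rose, 20 under quantile normalization and 7 when every entry was tested. It was 22 without siECHS1 replicate 4 and between 7 and 9 without siNC replicates 2, 3 or 4 or siECHS1 replicates 1, 2 or 3.

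How siECHS1 replicate 4 differed from the other siECHS1 libraries was seen over the Nduf entries as a group. The median deviation of the 42 entries from their own mean over the 8 libraries was 0.10 in that library, and -0.06, -0.06 and -0.11 in siECHS1 replicates 1 to 3. It held the highest siECHS1 value for 33 of the 42 entries, or 78.6%, beside 30.1% of all genes tested. Under 1000 bases this share was 87.5% of Nduf entries and 49.2% of all genes. It was 66.7% of Nduf entries of 1000 bases or more. Beside that stood 37.5% of all genes of 1000 to 3000 bases and 10.4% of those of 3000 bases or more. Summed over the subunit entries, the level was 4148, 4508, 4264 and 4426 FPKM in siNC libraries and 4097, 4090.4, 3976 and 4565 FPKM in siECHS1 libraries. The sums of siECHS1 replicates 1 to 3 lay below every siNC sum, and the sum of siECHS1 replicate 4 lay above every one. Complex I was not alone in this. Complex IV entries summed to 6147 to 6723 FPKM in siNC libraries. Their sums were 5622 to 6064 FPKM in siECHS1 replicates 1 to 3 and 6760 FPKM in replicate 4. Over complexes II to V together, siECHS1 replicates 1 to 3 summed to 14445 to 15241 FPKM. Replicate 4 summed to 16694 FPKM there, within the siNC range of 15767 to 17145 FPKM. Transcript length moved with this library: its median deviation was 0.08 over all genes under 1000 bases and -0.06 over all genes of 3000 bases or more, and the median Nduf entry was 869 bases long beside 2258 bases for all genes. The part of length in these values was not tested.

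**Figure D5:**
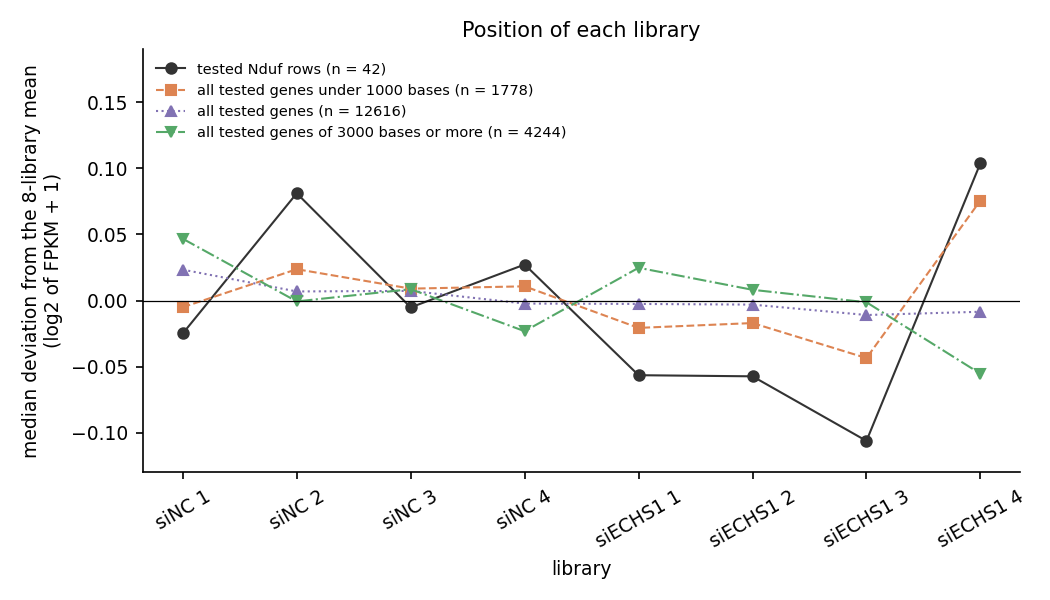
Median deviation from the mean over the 8 libraries (log2 of FPKM + 1), by library, for the 42 tested Nduf entries, all tested genes, those under 1000 bases and those of 3000 bases or more. For the Nduf entries the median of siECHS1 replicate 4 is 0.10, and those of the other siECHS1 libraries lie between -0.11 and -0.06.

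Without siECHS1 replicate 4 the median change was -0.09, and the 9 Nduf entries that fell were Ndufa10, Ndufs3, Ndufv1, Ndufs7, Ndufa3, Ndufa9, Ndufb6, Ndufb10 and Ndufb11, so that 21.4% fell beside 12.3% of all genes in the same comparison, where 20.9% of all genes were called and 8.61% rose. Ndufaf1 did not pass there (adjusted p = 0.0591, limma), while Ndufaf6 and Ndufs1 passed. Leaving out any other library gave 3 or 4 fallen entries, or 7.14% to 9.52%. siECHS1 replicate 4 stood out by its high Nduf values, so leaving it out favours falls among these same entries. The 21.4% is therefore a description and not a test.

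Under 1 FPKM, and so not tested, were 4 Nduf entries: Ndufa1, Ndufa13, Ndufs6 and Ndufa4l2. For 3 of the 4 the table holds further entries with a matching protein. The Ndufa13 entry measured 0.727 FPKM in siNC libraries, whereas LOC100911483, whose protein match is the same subunit, measured 230.3 ± 8.25 FPKM (SD, n = 4) in siNC and 227.6 ± 18.9 FPKM (SD, n = 4) in siECHS1 libraries. The Ndufs6 entry held reads in siNC replicate 3 alone, at 0.167 FPKM. No source used here says how the authors' counting divided reads among near-identical entries, so levels of Ndufa1, Ndufa3, Ndufa12, Ndufa13, Ndufb4, Ndufb5, Ndufs5, Ndufs6 and both Ndufv3 entries are uncertain. The smaller Ndufv3 entry, on chromosome 13, measured 3.57 FPKM and had the fifth most negative estimate at -0.16 ± 0.17 (SE, adjusted p = 0.561, limma), which was 0.01 without siNC replicate 4. Over the 29 tested entries that share neither a protein match nor a position with another entry, 3 fell and 2 rose. That is 17.2% called, beside 21.0% of all genes.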

How the data were processed

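RNA of 8 libraries was prepared with an Illumina TruSeq RNA kit that does not mark strand, per the labels' protocols. The authors deposited FPKM per gene. Bowtie 0.12.2 and the builds Rnor_6.0 and mm8 are named in the submitters' processing notes. The counting tool, annotation and treatment of multiply mapped reads are named in no source used here. Whole reads were recovered from FPKM steps, with 100% of values whole within 0.01 read.

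Entries averaging 1 FPKM or more were tested on log2(FPKM + 1) with limma 3.58.1 (variance trend, R 4.3.3, two-sided, unpaired, Benjamini-Hochberg, threshold 0.05), which was tested on simulated data. Adding 1 understates changes of low entries. Members and lists were chosen with earlier results of these data known. Named genes were called members, the 5 most negative and 5 most positive, the 3 most abundant and the lowest, NDUFAF genes, and called genes of each list other than the cell markers, or the 4 of smallest p where more than 6 of a list passed. 1 Nduf entry counts in the totals and is not reported singly here. Ndufv2, Ndufs7, Ndufs8, the entries called without siECHS1 replicate 4 and those with uncertain levels were named after their values were seen. Alternatives changed the pseudocount (0.1), filter (none, 5 FPKM), scaling (median of ratios, quantile), test (limma voom on recovered reads), replicate block and libraries. Promoters came from RefSeq.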

Additional observations from a re-analysis of the deposited data

Results flagged for a closer look

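In 4 of the 90 groups of 4 libraries that were checked, a library stood farther from the other 3 than Dixon's 95% limit allows, and chance gives about 1 in 20. Ndufaf6, which rose, measured 12.8 FPKM in siECHS1 replicate 4 and 11.5 to 11.7 FPKM in the other siECHS1 libraries. Atp5g2, a complex V subunit that fell, measured 402 FPKM in siECHS1 replicate 4 and 351.7 to 356.8 FPKM in the other 3. Iba57 measured 5.40 FPKM in siNC replicate 4 and 5.13 to 5.17 FPKM in the other siNC libraries. Ndufs6 measured 0.167 FPKM in siNC replicate 3 and was listed at 0 in the other siNC libraries. Both Ndufaf6 and Atp5g2 passed the test with all 8 libraries.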

How the results depend on the processing

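None of the 6 called Nduf entries changed sign under any of the 15 alternatives, and 7 entries that were not called did. Of those 7, Ndufb9 changed from -0.0004 to 0.0179 under median-of-ratios scaling and lay between -0.0456 and 0.0341 with a library left out. Ndufaf7 lay between -0.0199 and 0.0814 with a library left out, and the chromosome 13 Ndufv3 entry between -0.274 and 0.0129. Fallen Nduf entries numbered 4 with all libraries and 3 to 9 with a library left out, 9 being the count without siECHS1 replicate 4. Risen entries numbered 2, 1 to 2 with a library left out, and 4 under quantile normalization and under the replicate block. Fallen subunits numbered 3, 3 to 9 with a library left out, and 5 under quantile normalization. Risen subunits numbered 1, 0 to 1 with a library left out, 2 with a minimum of 5 FPKM or median-of-ratios scaling, and 3 under quantile normalization or the replicate block. Fallen NDUFAF genes numbered 1, 0 to 1 with a library left out, and 0 with no filter, under either scaling or under the replicate block. Genes of the other lists fell in 18 cases, 7 to 26 with a library left out, 8 with no filter and 11 under median-of-ratios scaling. They rose in 4 cases, 2 to 4 with a library left out and 2 with no filter. Under median-of-ratios scaling 9.84% of all genes fell and 10.2% rose. For libraries with the same replicate number the correlations of their deviations were 0.17, -0.05, 0.01 and 0.07. Other pairs lay between -0.15 and 0.10. Such correlations cannot decide whether libraries with the same number shared a culture, which the labels do not state. Entries under 1 FPKM rest on few reads and were not tested.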
